A study of Camelus dromedarius with 4 samples.

Results

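The genes described here were 10 precursors of neuropeptides that act in feeding control or are known as co-transmitters of magnocellular neurones: GAL, CCK, CARTPT, NPY, AGRP, NTS, VIP, ADCYAP1, NMU and NMB. They were chosen by symbol, and every entry of the table of season means that bore one of the 10 symbols was taken. The table held 18152 entries, of which 16053 had season means. Season means were given for 6 of the 10 precursors (CCK, CARTPT, NPY, NTS, ADCYAP1 and NMB). AGRP and VIP were listed without means, and GAL and NMU had no entry under their symbols and were not analysed here.

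The supraoptic nucleus, a hypothalamic nucleus of vasopressin and oxytocin neurones, was taken from hydrated, healthy, age-matched adult male dromedary camels of the Tergui breed. RNA-seq of total RNA depleted of ribosomal RNA compared 2 winter libraries (animals slaughtered at El Oued, Algeria) with 2 summer libraries (animals slaughtered at Ouargla, Algeria). Neither group was water-deprived, and season, place and date of slaughter cannot be told apart. The comparison asked which transcripts differ between the seasons.

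Neuropeptides are cleaved from larger precursors, stored in dense-core vesicles and act mostly on G protein-coupled receptors. Magnocellular neurones are known in other mammals to make small amounts of several peptides, among them galanin, cholecystokinin, CART and PACAP, beside vasopressin or oxytocin. NPY and AGRP are made by arcuate neurones that promote feeding and VIP by suprachiasmatic neurones, so a dissection of the supraoptic region can also hold transcripts of nearby cells and of fibres entering the nucleus.

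Each mean in the table was solved for the whole reads of the 2 libraries behind it, which gave a single solution for all 6 precursors. The libraries are called here by season and by the size factor that the table's means imply: winter 1.33, winter 0.946, summer 0.922 and summer 0.877. Values are reads divided by the size factor (normalized reads), and where a pair of values is given for a season, the library of the larger size factor comes first. They carry no correction for transcript length, so levels of different genes were not compared.

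The 4 count files held 4379162 to 6902037 reads on gene models. Across the 7657 symbols that had a single solution and a mean of 10 or more in either season, the 2 winter libraries had the highest correlation with each other (Pearson's r = 0.839 on the log2 scale) and the 2 summer libraries the lowest (r = 0.579). These are correlations across genes, which are not independent replicates. Both summer libraries stood apart, by different measures. In summer 0.922, 282 of the 7657 symbols (3.68%) had no read, against 5 to 12 in each of the other libraries. Summer 0.877 had the lower correlations with the winter libraries (0.716 and 0.759, against 0.771 and 0.764 for summer 0.922). The season differences of the precursors are therefore also given without each of them. The defining precursors of the nucleus were listed: the authors' means were 621 in winter and 592 in summer for oxytocin (OXT), and 2560 and 11822 for the entry named PUTATIVE_AVP.

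For none of the 6 precursors was a season difference larger than the spread of the libraries. When the recovered reads were tested by edgeR's quasi-likelihood method, 0 of 7657 symbols passed an adjusted p of 0.05 by the Benjamini-Hochberg method, 160 had an unadjusted p under 0.05, and DESeq2 and edgeR's exact test each called 1. The 6 precursors all had an adjusted p of 0.994. By the rule of the study, an unadjusted p under 0.05 with a difference of more than 2-fold, 0 of the 6 passed, against 1.89% of all symbols tested. Without summer 0.922 the number was 2 (NPY and NTS, higher in summer), when 10% of all symbols tested passed in that direction. Without summer 0.877 it was 3 (NPY, CARTPT and ADCYAP1, higher in winter), when 11.4% did. In the means alone, 4 of the 6 were higher in winter (46.2% of 13808 symbols with a mean of 10 or more in either season) and 1, CARTPT, differed by more than 2-fold (6.42% of those symbols, and 2.44% in the winter direction). In 0 of the 6 did both libraries of a season lie above both of the other, which held for 30.5% of all symbols tested. CCK, CARTPT and NMB reached the minimum mean only in winter, which favours a winter direction in these 3.

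NPY, the orexigenic peptide of arcuate and many other neurones, was even in winter and uneven in summer. It had 24.9 normalized reads in winter 1.33 and 22.2 in winter 0.946, and 5.42 in summer 0.922 and 66.1 in summer 0.877. Both winter values thus lay between the lowest and the highest summer value. The means were 23.6 ± 1.90 (SD, n = 2) in winter and 35.8 ± 42.9 (SD, n = 2) in summer. The fitted difference, winter over summer, was -0.50 ± 0.84 (log2, SE) with a 95% interval of -2.38 to 1.38 (edgeR's quasi-likelihood test, adjusted p = 0.994). Within summer the libraries differed 12.2-fold, from 5 and 58 reads, with an exact binomial interval of 4.94 to 39.0 that covers counting error only. Within winter the ratio was 1.12 (0.630 to 2.04). The direction of the season difference turned on which summer library was kept. It was -1.33 on the log2 scale without summer 0.922 (edgeR, adjusted p = 0.258) and 2.01 without summer 0.877 (edgeR, adjusted p = 0.246).

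AGRP, the melanocortin antagonist made with NPY in the arcuate nucleus, had an entry without means. Entries with means held at least 3 reads over the 4 libraries, and what a missing mean marks is not given in the sources used here. Of the other arcuate markers, KISS1 and GHRH were also without means. TAC3, the neurokinin B precursor, had 11.3 and 9.52 normalized reads in winter and 0 and 14.8 in summer, with summer 0.922 at 0 as in CARTPT. TBX3, a transcription factor of arcuate neurones, had 34.0 and 27.5 in winter and 34.7 and 23.9 in summer, so that it was the higher in summer 0.922. The sum of TAC3 and TBX3 was 45.3 and 37.0 in winter and 34.7 and 38.8 in summer. TAC3 had a summer gap in the direction of NPY and TBX3 did not. The sum was mostly TBX3, so it cannot show whether arcuate markers shared the gap of NPY. POMC, the precursor of melanocyte-stimulating hormone in the arcuate nucleus and of peptides in the pituitary, had authors' means of 738 in winter and 1294 in summer. The part of arcuate or pituitary tissue in the NPY and POMC values was not tested. In bulk tissue, fewer cells of a type and less RNA per cell cannot be told apart.

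CARTPT, which encodes the CART peptides that reduce feeding and is known in magnocellular neurones, had the largest ratio of means among the 6. It had 15.1 and 6.35 normalized reads in winter 1.33 and winter 0.946, 0 in summer 0.922 and 6.84 in summer 0.877. The value of summer 0.877 lay just above the lower winter value, and both rested on 6 reads. The means were 10.7 ± 6.18 (SD, n = 2) in winter and 3.42 ± 4.84 (SD, n = 2) in summer, a 3.13-fold ratio. The fitted difference was 1.74 ± 1.24 (log2, SE; 95% interval -1.03 to 4.50; edgeR's quasi-likelihood test, adjusted p = 0.994). A count of 0 in summer 0.922 allows up to 3 reads, or 3.25 normalized reads, and the exact binomial interval of the ratio of summer 0.877 to summer 0.922 began at 1.24. Without summer 0.922 the fitted difference was 0.83 (edgeR, adjusted p = 0.784). Without summer 0.877 it was 6.54 (edgeR, adjusted p = 0.101), a value that depends on the prior count because the summer library left held no read.

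CCK, which encodes cholecystokinin and is known as a co-transmitter of oxytocin neurones, had nearly equal means. It had 13.6 and 7.40 normalized reads in winter and 3.25 and 14.8 in summer, with the winter values inside the summer range. The means were 10.5 ± 4.37 (SD, n = 2) in winter and 9.04 ± 8.18 (SD, n = 2) in summer. The fitted difference was 0.31 ± 0.94 (log2, SE; 95% interval -1.80 to 2.43; edgeR's quasi-likelihood test, adjusted p = 0.994), an interval that does not exclude changes of over 2-fold in either direction. The summer libraries differed 4.55-fold (1.25 to 24.9 by counting error), and the fitted difference was -0.31 without summer 0.922 and 1.59 without summer 0.877.

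ADCYAP1, the precursor of PACAP, had 70.2 normalized reads in winter 1.33, 28.6 in winter 0.946, 13.0 in summer 0.922 and 42.2 in summer 0.877. The seasons overlapped, since summer 0.877 lay above winter 0.946. The means were 49.4 ± 29.4 (SD, n = 2) in winter and 27.6 ± 20.6 (SD, n = 2) in summer. The fitted difference was 0.92 ± 0.65 (log2, SE; 95% interval -0.54 to 2.38; edgeR's quasi-likelihood test, adjusted p = 0.994). Leaving out each library in turn kept the direction but moved the size from 0.16 without winter 1.33 to 1.83 without summer 0.877 (edgeR, adjusted p = 0.115), and without summer 0.922 it was 0.39. The difference within each season, 2.46-fold (1.59 to 3.93) in winter and 3.24-fold (1.65 to 6.83) in summer, was larger than the counting error.

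VIP, a relative of PACAP that marks suprachiasmatic neurones, was listed without means. Of the other suprachiasmatic markers, PROK2 was also without means, and GRP had 3 reads in winter 1.33 and none in the other 3 libraries. RGS16 had 5.28 and 6.35 normalized reads in winter and 1.08 and 1.14 in summer. LHX1 had 12.1 and 8.46 in winter and 1.08 and 1.14 in summer, also higher in winter. The marker NMS went the other way. NMS, the precursor of neuromedin S and a paralogue of NMU, was present in every library at 23.4 and 25.4 normalized reads in winter and 42.3 and 33.1 in summer. Both summer values lay above both winter values, as in 17.2% of symbols tested, and the fitted difference was -0.62 ± 0.57 (log2, SE; edgeR's quasi-likelihood test, adjusted p = 0.994). It was -0.28 without summer 0.922 and -0.89 without summer 0.877.

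NTS, the precursor of neurotensin and neuromedin N, was the exception in the winter libraries. It had 17.4 normalized reads in winter 1.33 and 37.0 in winter 0.946, 22.8 in summer 0.922 and 67.2 in summer 0.877. Its lowest value was in winter 1.33, where the other 5 precursors had the higher of their winter values. The means were 27.2 ± 13.9 (SD, n = 2) in winter and 45.0 ± 31.5 (SD, n = 2) in summer, a 1.66-fold ratio towards summer. The fitted difference was -0.69 ± 0.65 (log2, SE; 95% interval -2.15 to 0.77; edgeR's quasi-likelihood test, adjusted p = 0.994). It was -1.16 without summer 0.922 (edgeR, adjusted p = 0.352) and 0.15 without summer 0.877.

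NMB, which encodes neuromedin B of the bombesin family, rested on few reads outside winter 1.33. It had 24.9 normalized reads there against 6.35 in winter 0.946, 4.34 in summer 0.922 and 13.7 in summer 0.877. A single winter library was thus high, and summer 0.877 lay above the other. The means were 15.6 ± 13.1 (SD, n = 2) in winter and 9.01 ± 6.60 (SD, n = 2) in summer, and the fitted difference was 0.91 ± 0.94 (log2, SE; 95% interval -1.20 to 3.01; edgeR's quasi-likelihood test, adjusted p = 0.994). It was -0.40 without winter 1.33, 0.38 without summer 0.922 and 1.77 without summer 0.877.

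**Figure D1:**
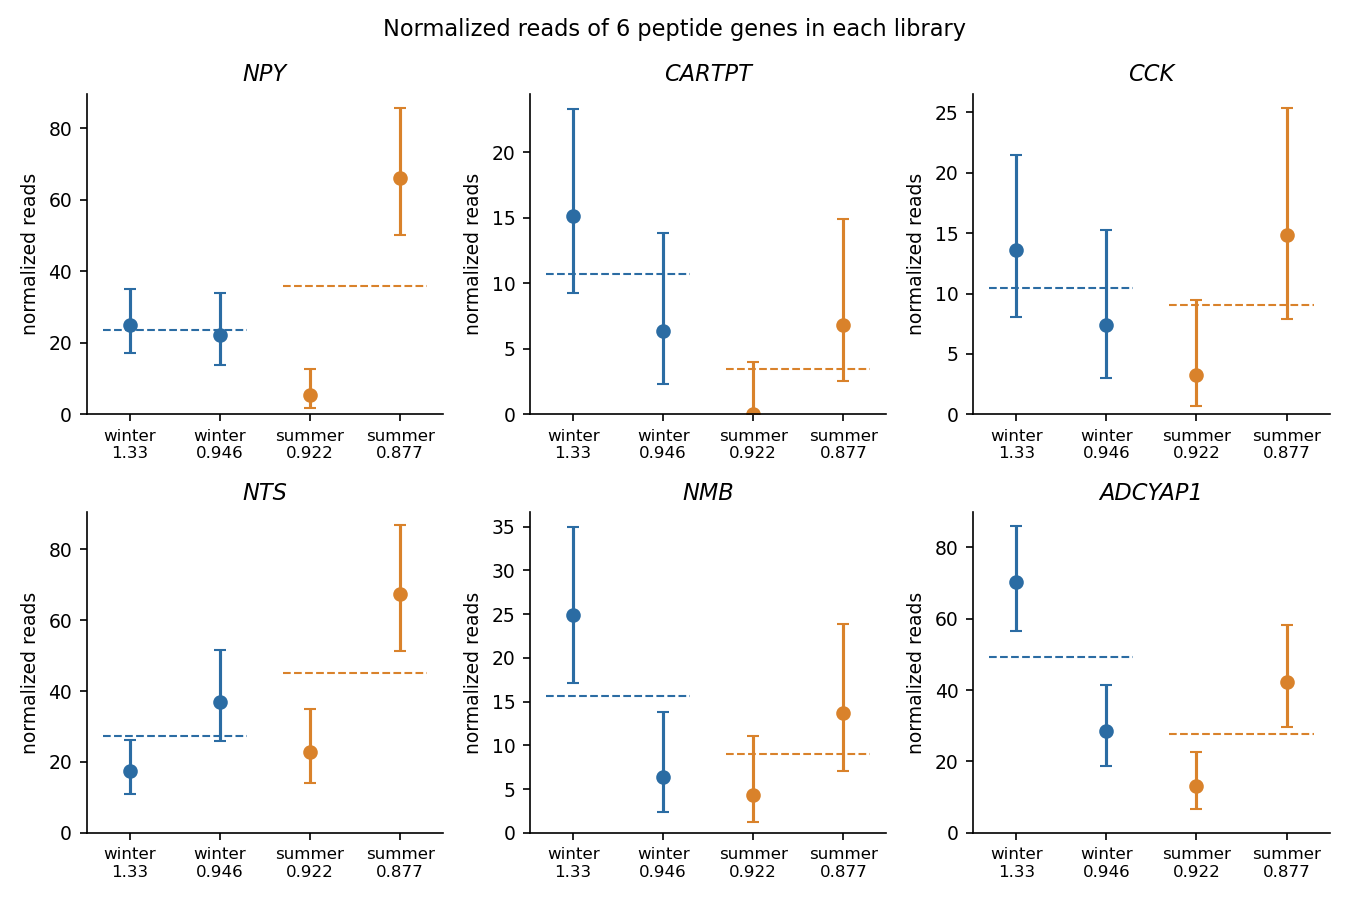
Normalized reads (reads divided by the size factor, linear axis from 0) of NPY, CARTPT, CCK, NTS, NMB and ADCYAP1 in the 4 libraries, 1 panel per gene with 1 mark per library. In each panel summer 0.877 sits above summer 0.922, and in none do both libraries of a season lie above both of the other.

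The season ratio moved widely with the library left out. On the log2 scale of the means with a pseudocount of 1, NPY ran from -1.45 without summer 0.922 to 1.93 without summer 0.877, and CARTPT from 0.58 to 3.55 under the same omissions. CCK, NTS and NMB also changed direction under an omission, with ranges of -0.46 to 1.43, -1.33 to 0.25 and -0.45 to 1.64. CARTPT and ADCYAP1 kept a winter direction throughout, ADCYAP1 at as little as 0.048. For each of the 6, leaving out summer 0.877 gave the value furthest towards winter.

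**Figure D2:**
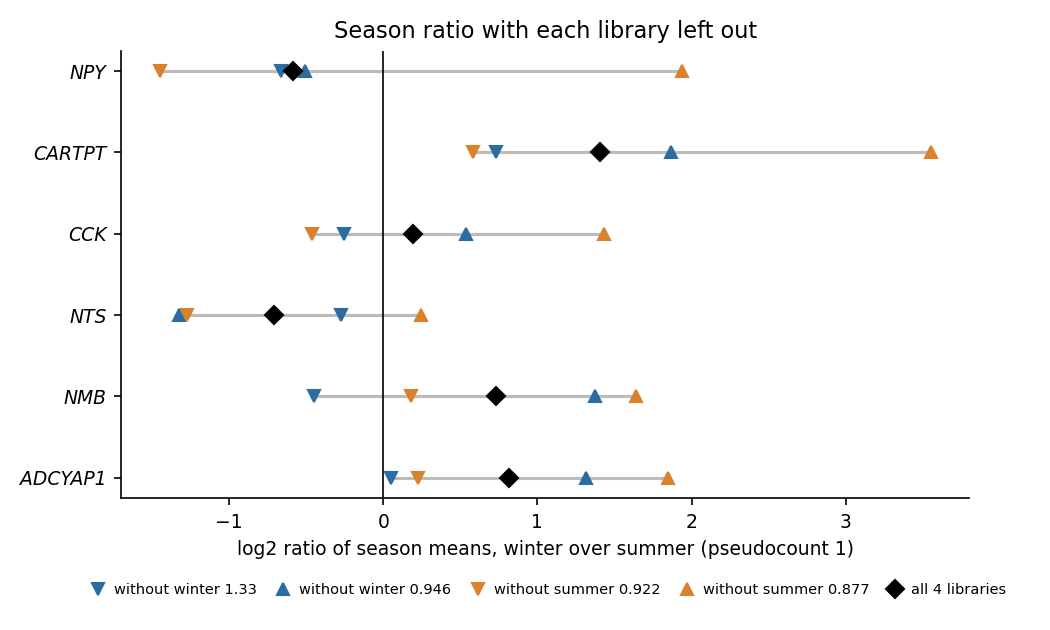
Log2 ratio of the season means (winter over summer, pseudocount 1) for each of the 6 precursors with all 4 libraries (diamonds) and after omission of each single library (triangles), joined by a grey line that spans their range. The line crosses 0 for NPY, CCK, NTS and NMB, and NPY has values of -1.45 and 1.93 at its ends.

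Like 68.8% of symbols tested, the 6 precursors differed more between the 2 summer libraries than between the season means. All 6 were higher in summer 0.877 than in summer 0.922, as were 61.8% of all symbols tested. The difference was more than 2-fold in all 6, against 26.8% of all symbols tested and 31% of those with both means under 100. The lowest of the 4 values was in summer 0.922 for 5 of the 6 (NTS excepted), against 37.9% of all symbols tested. In winter, 5 of the 6 were higher in winter 1.33, against 53.4% of symbols tested, and 3 (CARTPT, ADCYAP1 and NMB) by more than 2-fold, against 9.96% of all symbols tested and 11.5% of those with both means under 100. The median log2 ratio of summer 0.877 over summer 0.922 was 1.76 over the 6 precursors and 0.27 over all symbols tested, and that of winter 1.33 over winter 0.946 was 0.96 and 0.056. For all 6 the difference within summer exceeded the difference between season means, which held for 68.8% of symbols tested. A difference of 2 single libraries carries more spread than a difference of 2 means, so it tends to be the larger. Summed over the 6, the reads were 220 and 102 in winter 1.33 and winter 0.946, and 45 and 185 in summer 0.922 and summer 0.877.

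**Figure D3:**
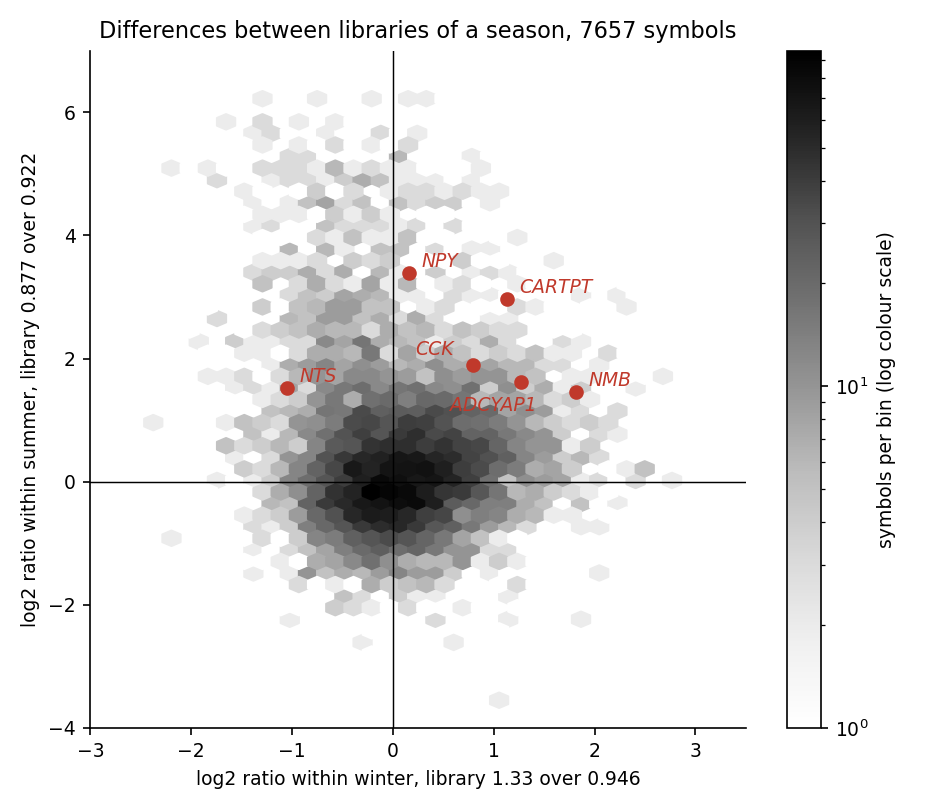
Log2 ratio between the 2 winter libraries (x axis, 1.33 over 0.946) against that between the 2 summer libraries (y axis, 0.877 over 0.922) for 7657 symbols, with bins shaded by the number of symbols on a log colour scale and the 6 precursors in red. The precursors all lie above 0 on the y axis, and all but NTS lie to the right of 0 on the x axis.

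Genes of other tissues were set beside these orders, in lists chosen after the data were examined. Olfactory receptors, which nasal sensory neurones express, were 122 of the symbols tested, in a family of similar copies between which reads can be split. Of these, 114 were higher in summer 0.877 than in summer 0.922, 102 of them by more than 2-fold. The median log2 ratio was 3.24, and 92 had their lowest value in summer 0.922. The 122 were the tested part of 230 with solved reads. A receptor can reach the minimum mean through summer 0.877 alone, which favours higher values in that library. The normalized reads of the 122 summed to 2074 and 3164 in winter 1.33 and winter 0.946, and to 1299 and 7010 in summer 0.922 and summer 0.877. Over all symbols tested, 61.8% were higher in summer 0.877, 26.8% by more than 2-fold, and 37.9% had their lowest value in summer 0.922. In winter, 20 of the 122 were higher in winter 1.33, where 53.4% of all symbols tested and 5 of the 6 precursors were. Of 10 liver genes tested, 8 were higher in summer 0.877 and 4 in winter 1.33, too few genes to set apart from the shares over all symbols. No difference between these lists and the precursors was tested. What these reads share with those of the precursors was not tested.

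Of the GABA, glutamate and general neuronal markers with solved reads, RBFOX3, SLC32A1 and GAD2 had both within-season orders of most precursors. SLC17A7 had that of summer only. RBFOX3, a neuronal splicing regulator, had 53.6 and 37.0 normalized reads in winter and 15.2 and 33.1 in summer. SLC32A1, the vesicular transporter of GABA, had 71.7, 24.3, 4.34 and 41.0 in winter 1.33, winter 0.946, summer 0.922 and summer 0.877 respectively, the order of libraries seen for ADCYAP1. Of the other GABA markers, GAD2 had 128 and 118 in winter and 62.9 and 131 in summer, and GAD1 had means of 178 in winter and 235 in summer. The glutamate marker SLC17A6 had means of 213 and 201, and SLC17A7 had 6.04 and 13.7 normalized reads in winter and 0 and 13.7 in summer. GAD1 and SLC17A6 had no single solution, so their order of libraries was not determined. All 5 general neuronal markers with means were higher in winter, with a median log2 ratio of 0.83. Of the 13808 symbols that reached the minimum mean in either season, 46.2% were higher in winter. The median log2 ratio over the 13808 symbols was -0.036. STMN2, also listed, had no means. Of the 5, RBFOX3 alone had solved reads, with a fitted difference of 0.97 ± 0.57 (log2, SE; edgeR's quasi-likelihood test, adjusted p = 0.994). A season difference of these markers as a set was not tested. The within-season orders were not particular to neuronal markers. All 3 astrocyte markers with solved reads were higher in winter 1.33 and in summer 0.877 than in the other library of the season. Of these, ALDH1L1 had 212 and 76.1 in winter and 70.5 and 168 in summer, also the order of ADCYAP1. CSF1R, the 1 microglial marker with solved reads, was lower in summer 0.877 (77.0 and 35.3 in summer). Among markers of pituitary and ependyma, CGA, the common subunit of glycoprotein hormones, had 35.5 and 55.0 normalized reads for winter and 8.68 and 47.9 in summer. RSPH1, a gene of motile cilia, had 67.2 and 74.0 in winter and 8.68 and 75.2 in summer. The other ependymal markers, FOXJ1 and PIFO, had low means that were higher in summer. These were 1.89 in winter and 6.78 in summer for FOXJ1, and 1.81 and 3.42 for PIFO. TBX19, a corticotroph factor, had 34.0 and 92.0 in winter and 35.8 and 71.8 in summer. All 5 pituitary markers had means. Growth hormone (GH1) had means of 1132 in winter and 464 in summer, and prolactin (PRL) 170 and 213. All 5 summed to 1420 in winter and 764 in summer, and the 4 without GH1 to 288 and 300. Of the 4 that reached the minimum mean, 3 were higher in winter and PRL was higher in summer. The part of cell composition in the values of the precursors was not tested.

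By pattern over the 4 libraries, the precursors with the widest range of log2(normalized reads + 1) were CARTPT, with a range of 4.01, and NPY, with 3.39. The symbols nearest to NPY, by Euclidean distance of the centred values, were ADH6 at a distance of 0.148, THNSL1 at 0.161 and OR2T27 at 0.193. ADH6, an alcohol dehydrogenase, had 38.5 and 39.1 normalized reads in winter and 9.76 and 104 in summer. OR2T27, an olfactory receptor, had 6.79 and 7.40 in winter and 1.08 and 21.7 in summer. The symbols nearest to CARTPT were UGT2B4 at 0.281, HRH3 at 0.459 and GRTP1 at 0.466. UGT2B4, a glucuronosyltransferase, had 15.8 and 7.40 normalized reads for winter and 0 and 9.12 for summer, and HRH3, the histamine H3 receptor, had 14.3, 7.40, 0 and 10.3. A likeness over 4 libraries is a description, and among 7657 symbols some lie close to any pattern.

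The receptors of the 10 peptides are mostly G protein-coupled, with sortilin (SORT1), a neurotensin receptor, as an exception. Of 22 genes listed, 15 had means, 7 reached a mean of 10 or more in either season and 6 were tested. Of the 6, 0 passed the rule of the study, against 1.89% of all symbols tested. Of the 7, 5 were higher in winter and 2 in summer, with a median log2 ratio of 0.48 and a range of -0.17 to 0.99. The median over all 13808 symbols was -0.036.

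ADCYAP1R1, the PACAP receptor, had means of 376 in winter and 271 in summer. The winter mean had 3 solutions in whole reads, and 1 of the 3 placed both winter libraries above both summer libraries. NTSR2, a neurotensin receptor known in astrocytes, had 58.9 and 19.0 normalized reads in winter and 17.4 and 28.5 in summer, with overlap and a fitted difference of 0.83 ± 0.67 (log2, SE; edgeR's quasi-likelihood test, adjusted p = 0.994). The difference of NTSR2 was -0.18 without winter 1.33 and 0.62 without summer 0.922. ADCYAP1 and NTSR2 were thus both highest in winter 1.33 and lowest in summer 0.922, whereas NTS was lowest in winter 1.33.

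CCKBR, the brain cholecystokinin receptor, had 18.1 and 10.6 normalized reads in winter and 5.42 and 7.98 in summer. Both winter values lay above both summer values, as in 13.3% of symbols tested, and the fitted difference was 1.15 ± 0.88 (log2, SE; edgeR's quasi-likelihood test, adjusted p = 0.994). GALR3, a galanin receptor, had 13.6 and 9.52 in winter and 8.68 and 3.42 in summer, again without overlap, with a fitted difference of 0.94 ± 0.96 (log2, SE; edgeR's quasi-likelihood test, adjusted p = 0.994). Without summer 0.922 the fitted differences were 1.01 for CCKBR and 1.89 for GALR3, and without summer 0.877 they were 1.31 and 0.33. GALR3 was the one receptor of 14 with solved reads that was lower in summer 0.877 than in summer 0.922. Over all symbols tested, 61.8% were higher in summer 0.877.

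The NPY receptors had the summer order of NPY. NPY5R had 18.1 and 10.6 normalized reads for winter and 1.08 and 28.5 for summer, and NPY2R had 13.6 and 5.29 in winter and 2.17 and 19.4 in summer. NPY1R did not share the gap, at 7.59 and 7.98 in summer. NMUR2, a neuromedin U receptor that also binds neuromedin S, had 25.7 and 38.1 normalized reads in winter and 10.8 and 34.2 in summer. Over the 14 receptors, 9 had their lowest value in summer 0.922 and 5 had no read in it. The summed normalized reads of the 14 receptors were 187 and 117 in winter and 64.0 and 177 in summer. The 6 precursors had the same order of libraries in sum (166, 108, 48.8 and 211), except for the highest library. That was winter 1.33 for the receptors and summer 0.877 for the precursors.

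**Figure D4:**
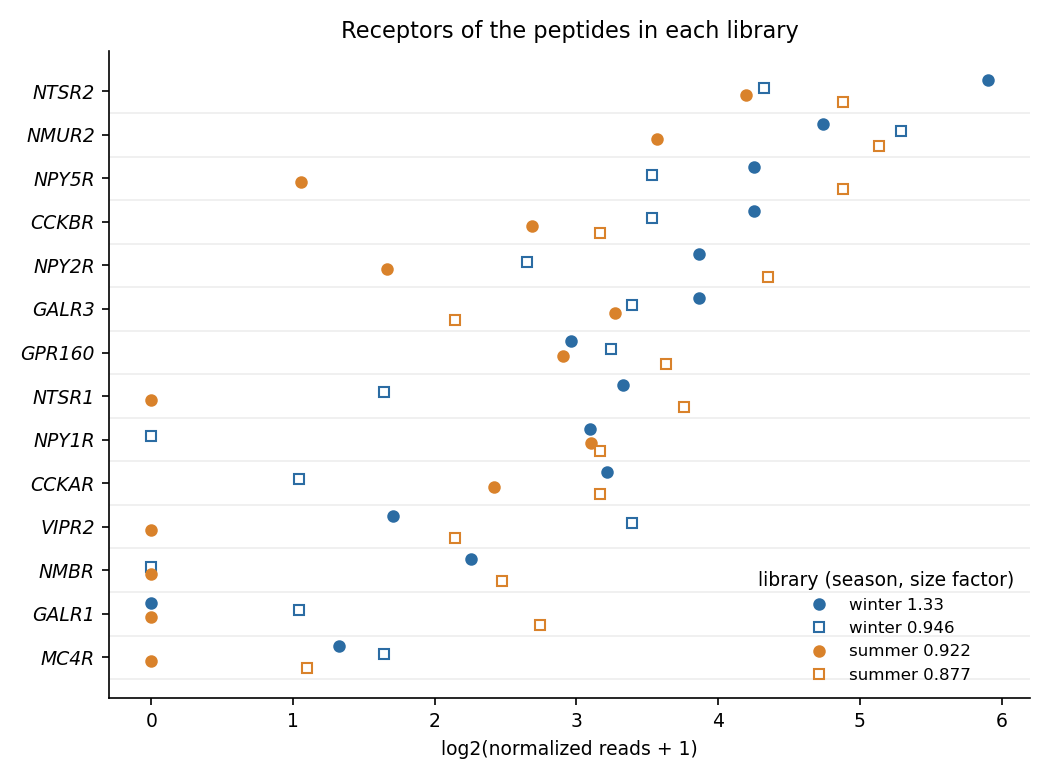
Log2(normalized reads + 1) of the 14 receptors with solved reads, 1 mark per library: winter in blue and summer in orange, filled for the library of the larger size factor in each season and open for the smaller. The filled orange marks (summer 0.922) are leftmost or tied for leftmost in most receptors, and at 0 in NTSR1, VIPR2, NMBR, GALR1 and MC4R.

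Among 29 other feeding peptides and paralogues, 20 had means, 10 reached the minimum mean and 9 were tested. The list was chosen with earlier results of these data known. Of the 9, 1 passed the rule of the study in each direction, against 1.89% of all symbols tested in either direction. The median log2 ratio of the 10 was -0.13. TRH, the thyrotrophin-releasing hormone precursor, had 116 and 58.2 normalized reads in winter and 46.6 and 12.5 in summer (log2 difference 1.53 ± 0.64, winter over summer; edgeR's quasi-likelihood test, adjusted p = 0.994). PDYN, the dynorphin precursor that vasopressin neurones are known to express, had 63.4 and 8.46 in winter and 128.0 and 126.5 in summer (log2 difference -1.75 ± 0.65; edgeR, adjusted p = 0.994). PDYN was even between the summer libraries, where each of the 6 precursors differed by more than 2-fold, and uneven in winter. TRH no longer passed the rule without winter 1.33 (log2 difference 0.99) or without summer 0.877 (0.80), and was at 2.94 without summer 0.922. PDYN no longer passed without winter 0.946 (-1.01). It was at -3.82 without winter 1.33, -1.64 without summer 0.922 and -1.91 without summer 0.877. SST, the somatostatin precursor, had 88.3 and 23.3 in winter and 42.3 and 59.3 in summer, so that winter 1.33 and summer 0.877 were the higher libraries of their seasons, as for ADCYAP1. Of the 19 peptides of this list with solved reads, 10 were higher in summer 0.877 than in summer 0.922. In summer 0.922, 4 of the 19 had their lowest value and 6 had no read. The shares over all symbols tested were 61.8%, 37.9% and 3.68%, in that order. The 19 included genes below the minimum mean, which were not tested.

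Of 18 transcription factors and processing enzymes that go with these peptides, 17 had means, 15 reached the minimum mean and 11 were tested. The median log2 ratio of the 15 was 0.075. Of the 11, 1 passed the rule of the study, against 1.89% of all symbols tested. LHX1, a transcription factor of suprachiasmatic neurones, alone passed the rule of the study, on 16 and 8 reads in winter against 1 and 1 in summer (log2 difference 3.12 ± 1.22; edgeR's quasi-likelihood test, adjusted p = 0.994). Its difference was 3.20 without summer 0.922, and it no longer passed without winter 1.33 (2.85). PCSK1, a prohormone convertase, had 41.5 and 24.3 normalized reads for winter and 82.4 and 55.9 for summer without overlap, and did not pass (log2 difference -1.05 ± 0.51; edgeR's quasi-likelihood test, adjusted p = 0.994). It passed without summer 0.877 (-1.41; edgeR, adjusted p = 0.103) and was at -0.60 without summer 0.922. The convertase PCSK2 (means of 390 in winter and 365 in summer), the carboxypeptidase CPE (625 and 563) and the amidating enzyme PAM (557 and 529) had near-equal means.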

How the data were processed

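RNA from the supraoptic nucleus was sequenced in 2 winter and 2 summer libraries, grouped from the sample labels. The methods give 2 tissues per season, and p-values measure the spread between these libraries only. The authors used TopHat to align to a dromedary assembly of their own, and HTSeq for counting, and deposited raw counts per gene model, without gene symbols. Tallies of reads off gene models (72.2% to 79.3% of tallied alignments) stayed out of library sizes. The authors also deposited a signal per symbol, a mean over the libraries of a season after scaling by DESeq size factors, beside their own fold changes and p-values, which were not used.

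The members and lists were chosen with earlier results of these data known. Whole reads were recovered by solving each mean for 2 whole numbers, given the value of 1 read in each library. All means were solved, 9898 symbols uniquely in both seasons. Solutions became ambiguous from a mean of 100.2 in winter and 369 in summer, and 0.161% of low summer means moved at random by up to 3% were solved. Which library of a season carries which replicate number was not determined. Uniquely solved symbols with a mean of 10 or more in either season went into edgeR 4.0.16 under R 4.3.3 (TMM factors, glmQLFit with the current dispersion method, glmQLFTest, common coefficient of variation 0.438), with p-values adjusted by the Benjamini-Hochberg method. With 2 libraries against 2, an exact permutation test cannot give a two-sided p below 0.333. Intervals of ratios within a season are exact binomial intervals (95%), and floors are 3 reads, both for counting error only. Alternatives were other scalings, filters, pseudocounts and fold thresholds, edgeR's exact test, DESeq2 1.42.0 and omission of each library. All 10 members were named. From the receptor, peptide and factor lists, genes past the rule were named, or otherwise the 2 highest means and 2 largest ratios. NMS, SST, PCSK1, the convertases, the NPY receptors, NMUR2 and the marker genes given were chosen after their values were seen. The scripts were tested on simulated data.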

Additional observations from a re-analysis of the deposited data

How the results depend on the processing

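Among the 6 precursors, under the alternatives that kept all 4 libraries, all 57 season differences kept their direction, and with 1 library left out 5 of 24 ratios were reversed. Over these omissions the ratio of means ran from -0.46 (without summer 0.922) to 1.43 for CCK, with -0.26 without winter 1.33, from -1.45 to 1.93 for NPY, from -1.33 to 0.25 for NTS and from -0.45 to 1.64 for NMB. The fitted differences ran from -0.31 to 1.59 for CCK, with -0.17 without winter 1.33, from -1.33 to 2.01 for NPY, from -1.33 to 0.15 for NTS from -0.40 to 1.77 for NMB, from 0.83 to 6.54 for CARTPT and from 0.16 to 1.83 for ADCYAP1. The values opposed to those of all 4 libraries came without winter 1.33 for NMB and without summer 0.877 for NPY and NTS. The number of the 6 higher in winter was 4, and 2 to 6 with 1 library left out. The number more than 2-fold apart in the means was 1 (CARTPT), 0 with a pseudocount of 5 and 4 at a fold threshold of 1.5. The number past the rule of the study was 0, and 0 to 3 with 1 library left out (2 without summer 0.922, 3 without summer 0.877). The lowest adjusted p of the 6 was 0.994, from 0.982 to 1.00 under the alternatives that kept all libraries and from 0.101 to 1.00 with 1 left out. With 1 library left out, the season with a single library was assumed to vary like the other. The number without overlap between seasons was 0, and 1 (CARTPT, 6 reads in both of the libraries that decide it) with total counts and with TMM factors. The median log2 difference of all symbols tested was -0.090, and -0.016 with total counts. The orders within each season held for the same numbers of precursors, 6 in summer and 5 in winter, with total counts and with TMM factors, 2 choices made after the data were examined. The restriction to symbols with both means under 100 was likewise chosen afterwards. The order of levels per coding length, with its alternative, was not run because no lengths were at hand. The seasons were compared unpaired, because the winter and summer libraries came from different animals, slaughtered at different places and dates.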
